A study of Mus musculus with 4 samples.

Results

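The peaks described here are the MafG peaks that lie within protein-coding genes but away from the ends of those genes, called internal peaks below. A peak on chromosomes 1 to 19 counted as internal when its midpoint fell inside a RefSeq protein-coding gene of the mouse mm10 build and over 1 kb from every protein-coding gene end. Of 68763 listed peaks, 66904 lay on these chromosomes, and 29872 of those were internal (44.6%, exact 95% binomial interval 44.3 to 45.0). The remainder were 5212 peaks within 1 kb of a gene end (7.79%) and 31820 peaks outside genes (47.6%).

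The study sequenced immunoprecipitated chromatin from livers of C57BL6/J mice, in 2 libraries labelled Ad BLRP MAFG and 2 labelled Ad BLRP Control. All 4 were fixed with formaldehyde and precipitated with the Avi-tag antibody. The tagged MafG was overexpressed, so its native level was not measured, and neither the age of the mice nor the time after treatment is given in the sources used here. A single peak list was deposited, called on 1 BLRP-MafG tag collection (20406492 tags) over 1 control collection (an implied 1.72e+07 tags), and whether each collection joined both libraries is not known. There is therefore 1 value per peak, with no value per library, no standard deviation and no test between animals. Intervals are exact 95% intervals and cover counting error only. A peak list holds no expression, so liver marker genes could not be checked.

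Small MAF proteins such as MafG bind DNA through a basic region and a leucine zipper, and have no domain of their own that activates transcription. MafG binds DNA paired with another MAF or with a CNC factor such as NRF2 or BACH1, and the partner decides whether a site is activated or repressed. The pairs recognise MAF recognition elements and antioxidant response elements, which share the letters TGCTGA or TGACNNNGC, and resemble the AP-1 site TGANTCA. Introns hold many enhancers, and in liver the small MAF partners are known for control of detoxification, haem and redox genes.

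Sequence was available for internal peaks that overlap an annotated transcript start or a microRNA hairpin, from RefSeq tables of assembly GRCm38.p6, the assembly of mm10. The stretches below are the parts of those windows that lie under the peak, written 5′ to 3′ on the gene's strand, with every match to TGCTGA, TGACNNNGC (alone or followed by A) or TGANTCA on either strand in capitals; the matches may overlap. Fam107b and Slc26a1 are shown because they carried the tallest internal peaks at a start of the gene that holds the peak, Crybb1 because TGCTGA and TGACNNNGC overlap in it, Sec16b for its separate matches, and Mrpl24 because no match was found under a peak of similar height. In order, they lie at chr2:3713321-3713507 (plus strand), chr5:108675316-108675496 (minus strand), chr5:112255598-112255798 (plus strand), chr1:157525920-157526116 (plus strand) and chr3:87919384-87919584 (plus strand).
Fam107b: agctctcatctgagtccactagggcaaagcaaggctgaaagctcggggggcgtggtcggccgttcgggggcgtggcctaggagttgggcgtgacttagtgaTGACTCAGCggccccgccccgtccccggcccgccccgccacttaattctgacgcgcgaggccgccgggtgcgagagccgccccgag
Slc26a1: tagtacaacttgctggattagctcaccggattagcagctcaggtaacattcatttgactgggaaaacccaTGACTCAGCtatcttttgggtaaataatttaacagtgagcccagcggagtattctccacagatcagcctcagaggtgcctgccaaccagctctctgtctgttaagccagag
Crybb1: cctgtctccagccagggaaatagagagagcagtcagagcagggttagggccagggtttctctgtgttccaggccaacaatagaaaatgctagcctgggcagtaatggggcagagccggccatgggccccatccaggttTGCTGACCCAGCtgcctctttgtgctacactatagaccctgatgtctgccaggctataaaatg
Sec16b: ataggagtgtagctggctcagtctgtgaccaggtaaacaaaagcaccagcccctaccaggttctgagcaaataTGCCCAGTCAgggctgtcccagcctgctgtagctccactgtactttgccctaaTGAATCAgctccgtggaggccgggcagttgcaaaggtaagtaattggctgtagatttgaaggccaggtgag
Mrpl24: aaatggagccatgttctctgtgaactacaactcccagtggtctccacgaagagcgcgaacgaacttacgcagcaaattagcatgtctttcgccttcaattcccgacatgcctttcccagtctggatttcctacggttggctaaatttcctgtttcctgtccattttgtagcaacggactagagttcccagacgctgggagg

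Height is given as the normalized tag count, the BLRP-MafG tags in a peak scaled by the authors to a total of 10000000. It was 63.2 at Fam107b (95% interval 52.8 to 75.1), with 0 control tags, and 58.3 at Slc26a1 (48.3 to 69.8), with 3 control tags. Slc26a1 encodes a sulfate transporter, and its only internal peak lay 2.98 kb from the 5' end of the gene. That peak also lies inside Idua, and the Crybb1 peak also inside Cryba4. The peak at Sec16b, a gene of endoplasmic reticulum export sites, reached 41.2 (32.8 to 51.0), the peak at Mrpl24, a mitochondrial ribosomal protein gene, 30.9 (23.7 to 39.5), and the peak at Crybb1, a lens crystallin gene, 28.9 (22.01 to 37.3). These 3 intervals overlap, so these 3 peaks, with and without a match, cannot be ranked firmly. The intervals of Fam107b and Slc26a1, which were chosen for their height, lie above that of Mrpl24. No match says only that these letters are not in this stretch.

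Of 9 microRNA hairpins that overlap an internal peak, 4 hold a match in the part under the peak (Mir106b, Mir126a, Mir34b and Mir6364) and 5 hold none, among them Gm51279 under a peak of 43.6. Mir106b is shown because its peak is the tallest of these, and Mir126a for the match near its 3' end. The peak at Mir106b, in the host gene Mcm7, which encodes a subunit of the replicative helicase, lay at chr5:138165698-138165898 and reached 255.3 (234 to 278) with 0 control tags. Its ratio to control, taken against a floor of 3 control tags, was 146, with a lower interval limit of 119. The peak at Mir126a, in the endothelial gene Egfl7, lay at chr2:26591334-26591534 and reached 32.3 (25.0 to 41.1), also with 0 control tags. The Mir106b hairpin lies at chr5:138165737-138165818 on the minus strand, the Mir126a hairpin at chr2:26591357-26591429 on the plus strand, and the capitals mark matches as above, with U for T.
Mir106b: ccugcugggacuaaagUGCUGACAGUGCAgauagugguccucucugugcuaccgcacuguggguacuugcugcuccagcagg
Mir126a: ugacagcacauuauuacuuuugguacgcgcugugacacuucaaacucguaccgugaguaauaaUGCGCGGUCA

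Motif shares were counted in whole start windows of 300 bases (250 before to 50 after the start) that overlapped a listed peak by at least 100 bp. Only 286 internal peaks (0.957%) did so, 224 of them at a start of the gene they lie in and 75 at a gene of another type, and chromosome 18 is not in the window table. These peaks were low: their median was 10.8 (quartiles 7.84 and 16.2), against 12.7 for the other internal peaks, and none reached 100. TGCTGA stood in 34.1% of the 320 windows with an internal peak and in 19.4% of all 31365 windows. TGACNNNGC stood in 20% and 12.5%, the same letters followed by A in 7.5% and 3.11%, and TGANTCA in 11.25% and 7.85%. The shares were higher where the peak was taller. Among 50 windows of 43 internal peaks of 20 or more, TGCTGA stood in 62.0%, TGACNNNGC in 38.0% and TGANTCA in 24.0%. Among 270 windows of internal peaks under 20 the same motifs stood in 28.9%, 16.7% and 8.89%. The 1757 windows with a gene-end peak held TGCTGA in 23.6%, TGACNNNGC in 19.2%, close to the share in all windows with an internal peak, and TGANTCA in 5.98%. Median GC content was 53.0% in all windows, 56.3% in those with an internal peak and 53.5% in those with one of 20 or more. Windows can overlap each other, and no test was made. Those windows are a small sample that lies at transcript starts, so these shares do not describe the other internal peaks.

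Internal peaks spanned a wide range of heights. The median height was 12.3 (quartiles 7.84 and 24.5), the 90th percentile 52.4, the 99th percentile 222.5 and the highest 2108.6. The gene-end peaks had a median of 10.8 (quartiles 7.84 and 16.7), and the peaks outside genes 12.7 (quartiles 7.84 and 24.5). A height of 100 or more was reached by 1275 internal peaks (4.27%), against 1.61% of gene-end peaks and 3.58% of peaks outside genes. A height of 200 or more was reached by 380 internal peaks (1.27%), against 0.326% and 1.05%. Of the tallest 1000 autosomal peaks, 507 (50.7%) were internal. Peaks are not replicates, and no test was made between the 3 classes.

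**Figure D1:**
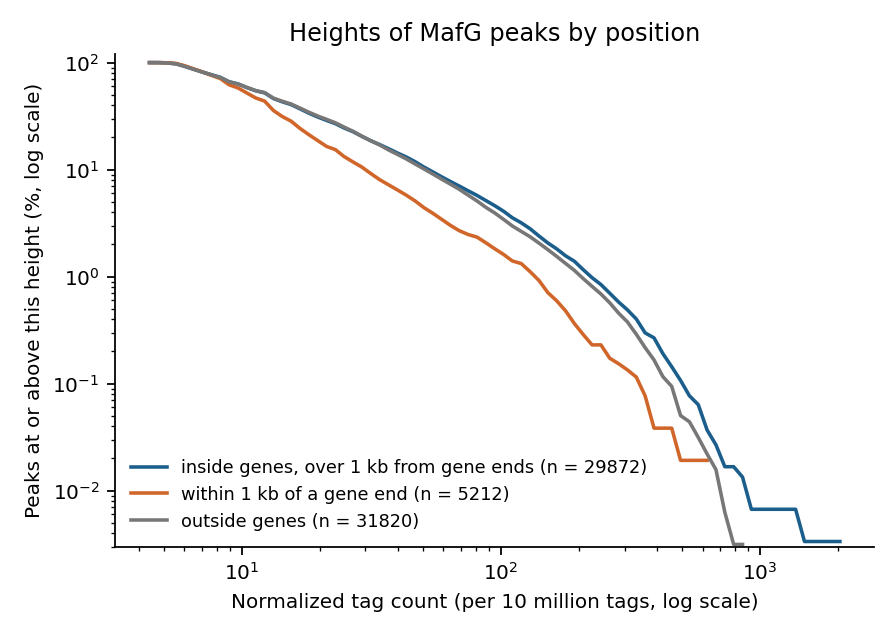
Share of peaks (vertical axis, %, log scale) at or above each normalized tag count (horizontal axis, per 10000000 tags, log scale), for internal peaks, gene-end peaks and peaks outside genes. The gene-end curve lies below the others at high counts, and the internal curve reaches farthest, to 2108.6.

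Internal peaks held a median of 25 BLRP-MafG tags and of 1 control tag. The control was empty in 12954 of them (43.4%), and 37 had at least 10 control tags. Median folds over control in the authors' deposited table were 24.46 for internal peaks and 24.67 outside genes. Against the surrounding 10 kb the same table gave medians of 14.32 inside genes, 19.34 outside and 8.78 at gene ends. A 10-fold excess over control was required of every listed peak, which shapes these folds. The lower limit of the ratio to control was above 10 in 4827 internal peaks (16.2%). The height was unevenly spread: the tallest 1000, each of 115.6 or more, lay in 897 genes and held 27.7% of all tags in internal peaks.

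Gene interiors, the parts of genes over 1 kb from every gene end, made up 943 Mb, or 38.8% of the span examined, and carried 31.7 peaks per Mb. Gene-end windows carried 69.8 per Mb and the space outside genes 22.5 per Mb. Just outside the limit, 1018 peaks inside genes lay at 500 to 1000 bp from an end (52.1 per Mb, median height 11.3, quartiles 7.35 and 17.6). Just inside it, 855 lay at 1000 to 1500 bp (45.9 per Mb, median 12.3, quartiles 8.33 and 19.9). Density thus changed gradually across the limit of 1 kb.

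Density inside genes declined with distance from the nearest gene end, while height stayed level. From 1 to 2 kb there were 44.1 internal peaks per Mb, from 10 to 20 kb 34.0, from 50 to 100 kb 28.9 and beyond 100 kb 23.1. At the same distances outside genes there were 37.0, 29.6, 24.7 and 15.9, lower in each of the 7 distance classes. The median height of internal peaks lay between 11.8 and 12.7 in every class. The same distance thus held more peaks on the gene's side of an end, a description with no test. Only long genes reach the far classes, and genes over 300 kb had 23.8 per Mb of interior. Distance and gene length therefore cannot be told apart in those classes.

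The sides of the gene differed close to the ends. Strand was known for 7569 genes of at least 20 kb. In these, 446 peaks lay 1 to 2 kb into the gene from the 5' end (60.5 per Mb) and 253 lay as far from the 3' end (34.4 per Mb). From 2 to 5 kb the densities were 41.6 and 33.2, from 10 to 20 kb 35.3 and 34.5, and from 20 to 50 kb 33.7 and 35.9. From 50 to 100 kb they were 31.9 and 33.7. Counted from the 3' end, density thus stayed between 33.2 and 35.9 out to 100 kb, and in these genes the decline lay on the 5' side. When each such gene was divided into 10 equal parts, the part nearest the 5' end held 35.6 peaks per Mb of interior with a median height of 11.8, and the part nearest the 3' end 30.6 with a median of 12.7. Genes with several transcript starts can hold starts that the annotated gene end does not show.

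**Figure D2:**
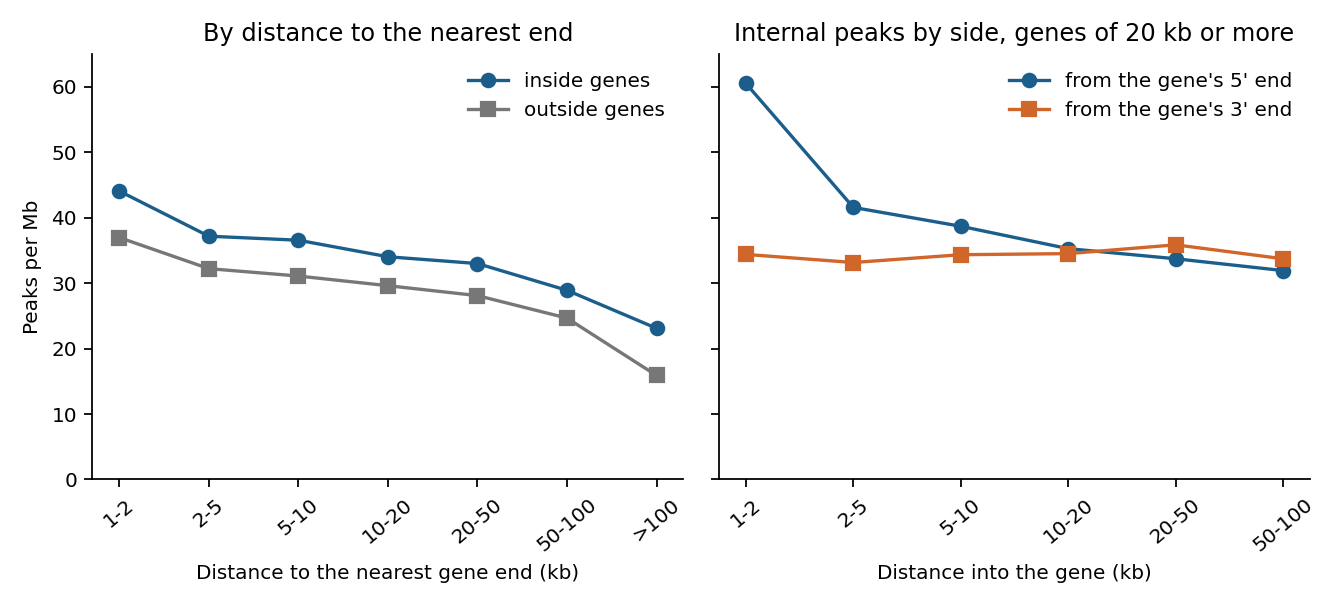
Peaks per Mb against distance to the nearest gene end in kb, inside and outside genes (left), and internal peaks per Mb against distance into the gene from its 5' or 3' end, for genes of 20 kb or more (right). Density falls from 44.1 to 23.1 inside genes on the left. On the right the 5' side starts at 60.5 and the 3' side at 34.4, and from 20 kb on the 3' side is slightly higher.

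Chromosomes differed in density and in the share of genes reached, and less in the median height. Density in gene interiors ran from 29.2 per Mb on chromosome 1 to 37.1 on chromosome 11, and the median height from 11.8 to 13.2. The share of genes with an internal peak ran from 42.0% on chromosome 7 to 64.4% on chromosome 18, and the share of internal peaks of 100 or more from 3.30% on chromosome 6 to 5.91% on chromosome 17.

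Of 20665 protein-coding genes on chromosomes 1 to 19, 18328 were long enough to have an interior. At least 1 internal peak lay in 9522 of these (52.0%), an internal peak of 50 or more in 2438 (13.3%) and one of 100 or more in 1113 (6.07%). This share rose with gene length. Genes with an internal peak had a median length of 44.3 kb and those without one 9.93 kb. A peak was present in 11.6% of the 5005 genes under 10 kb, 45.6% of those from 10 to 30 kb, 79.5% from 30 to 100 kb, 97.4% from 100 to 300 kb and 100% of the 533 genes over 300 kb. Across the 18328 genes the number of internal peaks and gene length had a Spearman correlation of 0.73 and a Pearson correlation of 0.81, which describe genes that share 1 tag collection and are not replicates.

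Per unit of length the longest genes had the fewest peaks. Density per Mb of interior was 35.4 in genes under 10 kb, 38.5 from 10 to 30 kb, 36.2 from 30 to 100 kb, 33.2 from 100 to 300 kb and 23.8 in genes over 300 kb. Genes with an internal peak had a median of 0.0452 peaks per kb of gene (quartiles 0.0282 and 0.0717), and this value fell with length (Spearman correlation -0.65). A short gene with 1 peak must have a high value per kb, so that correlation follows in part from the arithmetic.

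**Figure D3:**
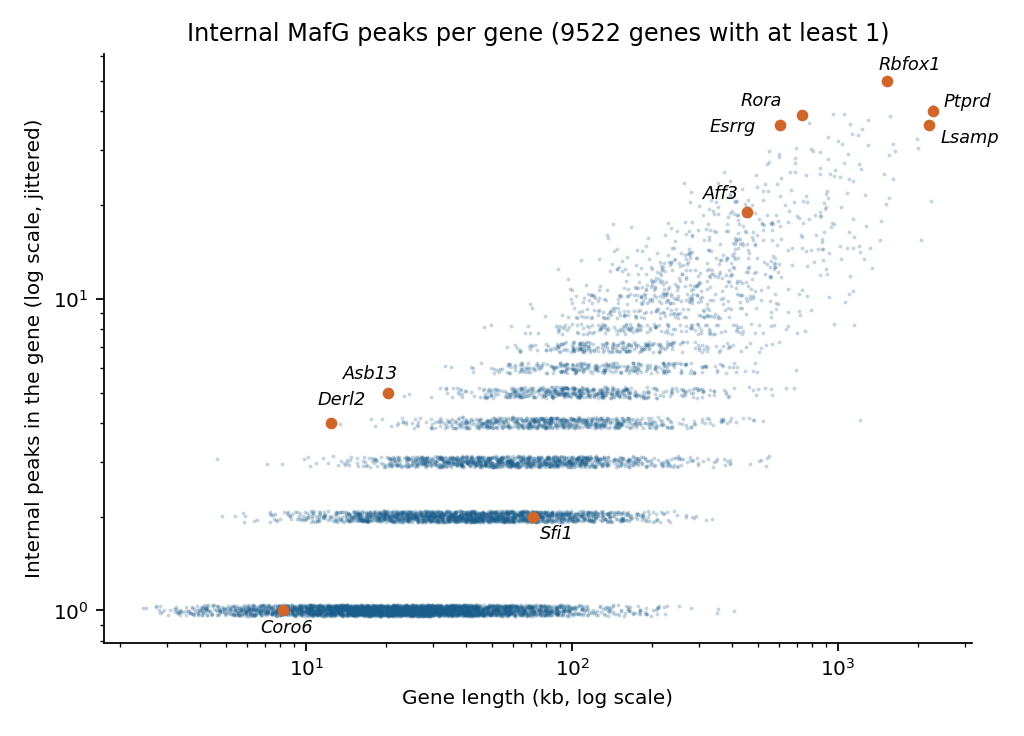
Number of internal peaks (log scale, slightly jittered) against gene length in kb (log scale) for the 9522 genes with at least 1; each point is a gene, and named genes are in orange. Rbfox1 is highest with 50 peaks, and Esrrg reaches 36 in a gene much shorter than Lsamp.

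Most genes held few internal peaks. A single peak was found in 3995 genes (42.0% of those with any), 2 in 1945, 3 to 5 in 2258, 6 to 10 in 868, 11 to 20 in 373 and over 20 in 83. The 83 genes, with a median length of 856 kb, held 2284 internal peaks (7.65%). Neighbouring peaks of a gene lay a median of 14.5 kb apart (quartiles 6.51 and 30.4 kb), and 642 of 20563 neighbouring pairs (3.12%) lay within 1 kb. In the 1795 genes with 5 or more internal peaks, the tallest held a median of 35.0% of the gene's summed tag count, and over 50% in 365 of them. In those 365 genes 1 tall peak thus outweighed the others together. Only 286 internal peaks (0.957%) lay inside several genes at once, as in the protocadherin gamma cluster, where 1 peak was inside 22 genes.

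Rbfox1, which encodes a neuronal splicing regulator, had the most internal peaks, 50 in 1528 kb. Their heights ran from 5.88 to 180.8 with a median of 16.5. Of the tall ones, 180.8 (163 to 200) lay 967 kb from the 5' end, 179.8 at 774 kb and 156.3 at 849 kb. The peak of 179.8 had 12 control tags, so its ratio to control was 25.8 (14.6 to 50.4), against 104 (35.2 to 505) for the peak of 180.8 with 3.

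After Rbfox1 came Ptprd, a receptor tyrosine phosphatase gene, with 40 peaks in 2271 kb, and the nuclear receptor gene Rora with 39 in 735 kb. Sox5, a transcription factor of the SOX family, also had 39. The catenin gene Ctnna3, the phosphodiesterase gene Pde4d and the RNA-binding protein gene Rbms3 had 38 each. In Ctnna3, 31 of these lay in no other gene, since Lrrtm3 lies inside it. Arhgap26 and Auts2 had 37 each, of which 29 in Arhgap26 lay in no other gene (Fgf1, Gm5820 and Gm19774 overlap it). Esrrg, which encodes the oestrogen-related receptor gamma, the adhesion gene Lsamp and the teneurin gene Tenm2 had 36 each. Cdh13, which encodes T-cadherin, and Dab1, an adaptor in reelin signalling, had 34 each, and Wwox had 33.

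These 15 genes were chosen for their peak number, and their lengths ran from 606 kb in Esrrg to 2271 kb in Ptprd. Lsamp held its 36 peaks in 2197 kb, 0.0164 per kb, and Esrrg held as many in 606 kb, 0.0594 per kb. Rora stood at 0.0531 per kb and Rbfox1 at 0.0327. The Rora peaks ran from 4.41 to 248.5 with a median of 11.3, and the Esrrg peaks from 5.88 to 130.8 with a median of 10.6. The tallest Rora peak, at chr9:68957936-68958136, lay 305 kb from the 5' end and had an interval of 227 to 271.

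**Figure D4:**
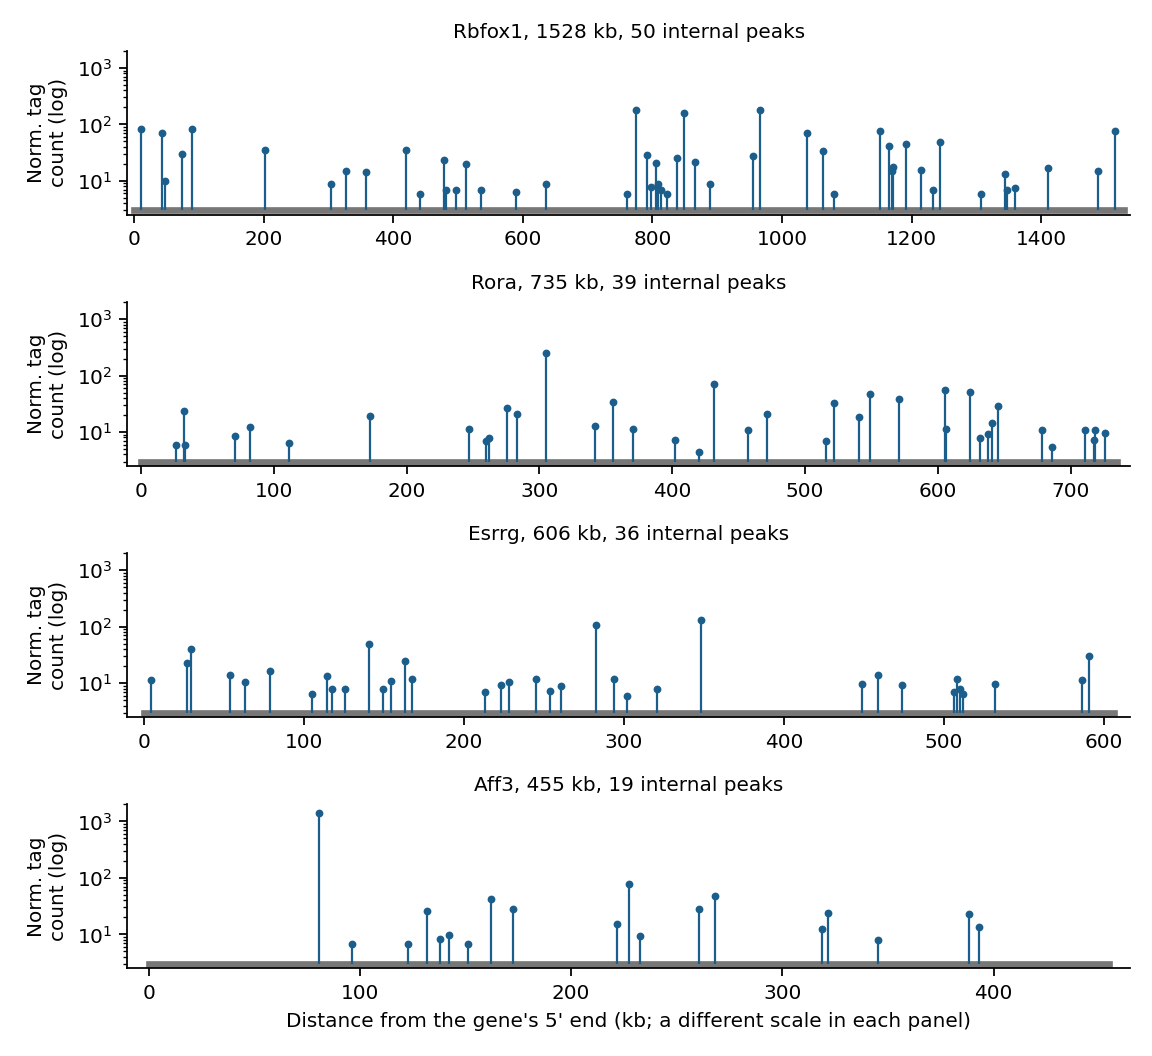
Internal peaks along Rbfox1, Rora, Esrrg and Aff3, by distance from the gene's 5' end (kb, a different scale in each panel) and normalized tag count (log scale); each line is a peak and the grey bar is the gene. Peaks are spread along all 4 genes, and in Aff3 the peak of 1437.8 stands above 18 others of 78.4 or less.

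Peaks per kb were ranked among genes of at least 10 kb with at least 3 internal peaks. The densest of these were short, with peaks well below the tallest of the series. The minimum length leaves out shorter genes such as Mafg, with 3 internal peaks up to 213.2 in 9.84 kb. Derl2, which encodes a protein of endoplasmic reticulum degradation, held 4 in 12.4 kb, 0.323 per kb. Its peaks reached 22.5, 8.33, 18.1 and 13.7. Park7, which encodes the redox-sensitive protein DJ-1, held 4 in 12.8 kb, at 13.7, 34.8, 31.9 and 63.7; the last lay at chr4:150908641-150908841 (53.2 to 75.6), 1.18 kb from the 5' end. The mitochondrial carrier gene Ucp3 held 4 (0.298 per kb) and Ttr, the gene of the plasma carrier transthyretin, 3 (0.297 per kb).

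Next per kb stood Myadm with 0.291, Prkab1, a subunit of the AMP-activated kinase, with 0.275, the small GTPase gene Rab17 with 0.260 and the splicing factor gene U2af1 with 0.249. Asb13 held 5 peaks in 20.2 kb (0.247), all of 13.2 or less. Igfbp4, which encodes a binding protein of insulin-like growth factors, stood at 0.237, followed by C1rl, Prss57, Gzf1, Jpt2 and Shkbp1 between 0.228 and 0.216. The tallest peak in each of the 15 genes lay between 12.3 in Rab17 and 63.7 in Park7. For comparison, the tallest internal peak of a gene had a median of 15.2 in genes of 10 to 30 kb with any, and of 22.5 over all 9522 genes with any.

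The tallest internal peak lay in Sfi1, which encodes a centriole-associated protein, at chr11:3133503-3133703, 1753 bp from a gene end. It reached 2108.6 (2046 to 2173). It also had 60 control tags, the most of any internal peak, and a ratio to control of 60.5 (46.9 to 79.4). The next highest control counts were 25 in Gm15319, 21 in Cep76 and 18 in Gm38510. By the ratio to control with at least 3 control tags assumed, Sfi1 was not among the first 15 genes. What the control tags contribute to its height was not tested.

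Aff3, which encodes a nuclear protein of the AF4 family, had the next tallest, 1437.8 (1386 to 1491) at chr1:38549365-38549565, 80.7 kb from the 5' end. Its control count was 2 and its ratio 1237 (342 to 10223). This peak held 78.4% of the summed tag count of the gene's 19 internal peaks. By the ratio with the floor of 3 control tags it stood first, at 825.

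The third and the fourth were Atxn1, which encodes ataxin 1, with 905.6 (865 to 948) at chr13:45751313-45751513, and Esrrb, an orphan nuclear receptor gene, with 881.1 (841 to 923) at chr12:86488131-86488331. Their intervals overlap, so their order is not settled by counting. Ttn, which encodes the giant muscle protein titin, had 853.2 (814 to 894) at chr2:76708613-76708813, 274 kb from its 5' end. Vipr2, a receptor of vasoactive intestinal peptide, had 730.2 (694 to 768).

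The other 9 of the tallest 15 lay between 614.5 and 694.9, with neighbouring intervals that overlap. Tln2, which encodes a talin that links integrins to actin, had 694.9, and the haematopoietic GTPase gene Rhoh 691.9. Spock1, a proteoglycan gene, had 675.3, and Sec23a, of the COPII vesicle coat, 670.4. The coronin gene Coro6 had 652.2. Opa1, a GTPase of mitochondrial inner membrane fusion, had 622.4 and Acox3, a peroxisomal oxidase of branched acyl chains, 618.9. Tmem108 had 616.5 and Arhgef18, a guanine nucleotide exchange factor gene, 614.5.

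The peak was the only internal one in Rhoh, Sec23a and Coro6, and 1 of 20 in Tln2. Control tags in the 14 peaks other than that of Sfi1 numbered 1 to 7, and the ratios to control ran from 165 (79.8 to 411) in Sec23a to 1469 (263 to 58041) in Ttn, where a single control tag makes the interval wide. Against the floor, the Ttn ratio was 490.

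Summed over a gene, tag counts put tall single peaks and many low ones side by side. Sfi1 summed to 2164.5 from 2 peaks, Aff3 to 1833 from 19, Spock1 to 1793 from 19 and Rbfox1 to 1674 from 50. The tallest peak made up 97.4% of the sum in Sfi1, 37.7% in Spock1 and 10.8% in Rbfox1. Tln2 with 1403, Atxn1 with 1340, Rbms3 with 1306, the phosphatase gene Ptprm with 1233, the transcription activator gene Camta1 with 1204 and the ankyrin gene Ank3 with 1156 completed the first 10.

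Long genes without any internal peak were few. The longest was Mmp16, a membrane metalloproteinase gene of 264 kb, followed by Dync2h1, a motor of cilia, with 250 kb. Cyp2c39, a cytochrome P450 gene that overlaps Cyp2c38 in the annotation, spanned 222 kb. The others were Olfm3 (222 kb), the GABA receptor gene Gabrb2 (213 kb), Gsg1l (204 kb), Plcxd3 (200.1 kb), the metalloproteinase gene Tll1 (193 kb), A26c3 (179 kb) and Adamts20 (164 kb). Signal below the caller's limits may still be present in such genes.

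Gene lists, mostly of liver functions, are described next, each by its counts. Beside them stand the shares of all genes with an interior: 52.0% held an internal peak, 13.3% one of 50 or more and 6.07% one of 100 or more. Peaks per Mb of interior are set beside 31.7 for all genes, which is lower than in every length class except genes over 300 kb (23.8). Genes under 10 kb had 35.4, those from 10 to 30 kb 38.5, from 30 to 100 kb 36.2 and from 100 to 300 kb 33.2. List genes differ in length, which moves these shares, and no test was made. In all 14 lists together, 75.5% of the genes with an interior held an internal peak. That total includes a list of 27 synaptic genes chosen for their length, all with an internal peak, so it is not matched to all genes.

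Of the bile acid synthesis genes, 10 of 19 with an interior held an internal peak, and 3 held one of 100 or more. The share was near the 52.0% of all genes, but the median length of these genes was 33.5 kb. Of all genes from 30 to 100 kb, 79.5% held an internal peak, and of those from 10 to 30 kb, 45.6%. Akr1d1, the reductase of the steroid ring, had 3, the tallest 194.5 (176 to 215) at chr6:37550870-37551070, 20.99 kb from the 5' end, with 1 control tag. Akr1c14, a hydroxysteroid dehydrogenase gene, had 2, the tallest 144.1 (128 to 162) at chr13:4076810-4077010. Cyp39a1, an oxysterol 7-alpha-hydroxylase gene, also had 2, the tallest 134.8 (119 to 152) at chr17:43743955-43744155. Those 3 genes stand clear of the remaining ones, whose highest upper limit is 61.2.

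Among these, Scp2, a peroxisomal thiolase and sterol carrier gene, had 7 peaks up to 50.5 (41.2 to 61.2). Slc27a2, an acyl-CoA synthetase gene, had 2 up to 46.1, Cyp27a1, the sterol 27-hydroxylase gene, 2 up to 28.4 and Cyp7b1, an oxysterol hydroxylase gene, 5 up to 24.0. Hsd17b4 had 3 up to 17.6, Abcd3, a peroxisomal transporter gene, 2 up to 16.7, and Akr1c6 1 of 9.80. None was listed inside Cyp7a1, the gene of the rate-limiting enzyme, or in Cyp46a1, Hsd3b7, Amacr, Acox2, Slc27a5, Baat, Acot8 and Cyp2c70. Cyp8b1 and Ch25h have no interior. The list had 36.7 peaks per Mb of interior.

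Internal peaks lay in 12 of 16 transporter genes for bile acids and biliary lipids (48.6 per Mb), and none reached 50. The median length of these genes was 50.3 kb. For comparison, 79.5% of all genes from 30 to 100 kb held an internal peak. The tallest was 34.8 (27.2 to 43.9) in Abcc2, an exporter of conjugates into bile, with 5 control tags. Abcb11, the bile salt export pump gene, had 5 peaks up to 32.8 (25.4 to 41.7) with 1 control tag, and Abcc3, a basolateral exporter gene, 5 up to 32.8 with 0. Those 3 intervals overlap. Slco1a1, Slco1a4, Slc51a and Slc51b held none.

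Among the regulators of bile acid genes, 10 of 13 held an internal peak, 76.9 per Mb, from 39 peaks. Nr1h4, the gene of the bile acid receptor FXR, had 6, the tallest 33.8 (26.3 to 42.8) with 0 control tags at chr10:89532100-89532300, 1.45 kb from the 5' end. Rxra, its partner receptor, had 6 up to 88.2 (75.8 to 102), and Nr1i2, the pregnane X receptor gene, 2 up to 66.6 (55.9 to 78.8). The tallest lay in Mafg itself, 213.2 (194 to 234), beside 64.7 and 89.7 in the same gene. The construct carries Mafg coding sequence, and tags from it and from the native gene cannot be told apart in this list. Nr0b2, Rxrb and Fgf15 held none.

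Among small MAF genes, CNC partners and Keap1, the sensor that restrains NRF2, 9 of 10 held an internal peak (64.2 per Mb) and Maff held none. Bach2, a repressor gene of 348 kb, had 20 peaks up to 106.3 (92.7 to 121). Nfe2l2, the gene of NRF2, had 1 of 90.7 (78.1 to 105) at chr2:75695905-75696105, 8.66 kb from the 5' end, and Nfe2l3 1 of 73.5 (62.2 to 86.3). Mafg, counted here too, had the tallest of the list, 213.2 (194 to 234), where tags of the construct cannot be told apart. In the remaining members, Nfe2, Bach1, Nfe2l1, Mafk and Keap1, the tallest internal peak lay between 9.80 and 16.7. With a limit of 5 kb from gene ends, 5 of these genes kept an internal peak, since most are short.

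Of the antioxidant genes known as NRF2 targets, 24 of 36 held an internal peak (52.9 per Mb) and 1 held one of 100 or more. That was Me1, the gene of cytosolic malic enzyme, with 125.9 (111 to 142) at chr9:86587104-86587304 and 0 control tags. Cat, the catalase gene, had 59.8 (49.6 to 71.4) and Tkt, of the pentose phosphate path, 47.0 (38.1 to 57.4). Control tags in these were 5 and 6, so their ratios to control were 20.6 (8.58 to 64.5) and 13.5 (5.98 to 37.7). Over the 24 genes, the tallest internal peak of a gene had a median of 13.7. It was 46.1 (37.2 to 56.4) in Gsr, 21.6 in Txnrd1, 19.6 in Gclc, 13.2 in Srxn1 and 6.86 in Hmox1. Nqo1 was among the 12 without one.

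The genes of nuclear receptors and their coregulators held 233 internal peaks, in 24 of 25 genes (50.8 per Mb), all but Nr2f1. A height of 100 or more was reached in 8 of the 25, among them Ppargc1b, Rora, Ncoa2, Esrrg, Ncor1, Ppard and Nr3c1. Ppargc1b, a coactivator of mitochondrial genes, had the tallest, 349.9 (325 to 377) at chr18:61357650-61357850 with 1 control tag. Rora had 248.5 with 7 control tags, and Ncoa2, a steroid receptor coactivator gene, 185.7 (167 to 205) with 9. The ratio to control was 602 (108 to 23822) in Ppargc1b, 61.1 (29.4 to 153) in Rora and 35.5 (18.5 to 78.3) in Ncoa2. The median length of the list, 109 kb, is above the 21.5 kb of all genes with an interior. Of all genes from 100 to 300 kb, 97.4% held an internal peak, so the share in this list is near that of genes of like length.

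Receptor genes of growth factors and hormones held internal peaks in 18 of 22 (49.5 per Mb). Fgfr2, a fibroblast growth factor receptor gene, had the tallest, 153.9 (137 to 172) at chr7:130214216-130214416. Lrp5, a WNT co-receptor gene, had 89.2 (76.7 to 103), and Ghr, the growth hormone receptor gene, and Ryk 62.2 (51.9 to 74.0) each. Gcgr, Tfrc and Asgr1 were among those without one. Genes of junctions and the actin skeleton held them in 25 of 27 (38.3 per Mb). Their median length was 104 kb, and 97.4% of all genes from 100 to 300 kb held an internal peak. The myosin gene Myh9 led with 264.6 (243 to 288), followed by Magi1 with 233.7 (213 to 256) and Tjp1, which encodes ZO-1, with 172.0 (154 to 191).

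Genes of fatty acid and triglyceride synthesis held internal peaks in 15 of 16 (58.3 per Mb), all but Dgat1. Elovl6, the elongase of palmitate, had 7, the tallest 270.0 (248 to 294) at chr3:129595105-129595305. The phosphatidate phosphatase genes Lpin1 and Lpin2 had 219.5 (200 to 241) and 154.4 (138 to 172). Me1, counted here too, and Acacb (104.9) also passed 100. Genes of fatty acid oxidation held them in 12 of 19 (49.0 per Mb). The medium- and long-chain dehydrogenase genes led, Acadm with 150.0 (134 to 168) at chr3:153934149-153934349 and Acadl with 122.0 (107 to 138) at chr1:66861912-66862112, and Etfb, which takes electrons from them, followed with 55.9 (46.1 to 67.1).

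The clock genes held internal peaks in 13 of 16 (47.4 per Mb), and 4 of the 16 held one of 100 or more. Arntl, which encodes BMAL1, had the tallest, 417.5 (390 to 447) at chr7:113197506-113197706, 19.1 kb from the 5' end, with 0 control tags. Its partner gene Clock had 263.6 (242 to 287) with 8 control tags, Rora 248.5 and the repressor gene Per2 220.5 (201 to 242). The intervals of Clock and Rora overlap, and that of Arntl lies above all others of the list. Per1, Nr1d1 and Dbp held none.

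Genes of the urea cycle, amino acid breakdown and glucose production held internal peaks in 12 of 20 (49.8 per Mb). Sds, the serine dehydratase gene, had 402.3 (375 to 431) at chr5:120478108-120478308, 1661 bp from a gene end, with 5 control tags. Tat, the tyrosine aminotransferase gene, had 89.2 (76.7 to 103) and Cps1, the first enzyme of the urea cycle, 64.2 (53.7 to 76.2). With a limit of 5 kb from gene ends, 7 of these genes kept an internal peak. Genes of plasma proteins, which are mostly short, held them in 8 of 21 (55.6 per Mb). Hc, the gene of complement C5, had 322.0 (298 to 348) at chr2:34984974-34985174, Alb, the albumin gene, 126.4 (111 to 143) and F2, the prothrombin gene, 47.0 (38.1 to 57.4).

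Synaptic adhesion and channel genes, chosen for their length, all held internal peaks, 27 of 27 with 551 peaks, but at 15.1 per Mb of interior. Their median length was 1212 kb, and genes over 300 kb had 23.8 per Mb. The tallest lay in Magi2 with 270.5 (248 to 294), Cadm2 with 245.5 (224 to 268) and Ntm with 198.5 (180 to 219). The share of genes with an internal peak and the density thus ran in opposite directions between this list and that of plasma protein genes.

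**Figure D5:**
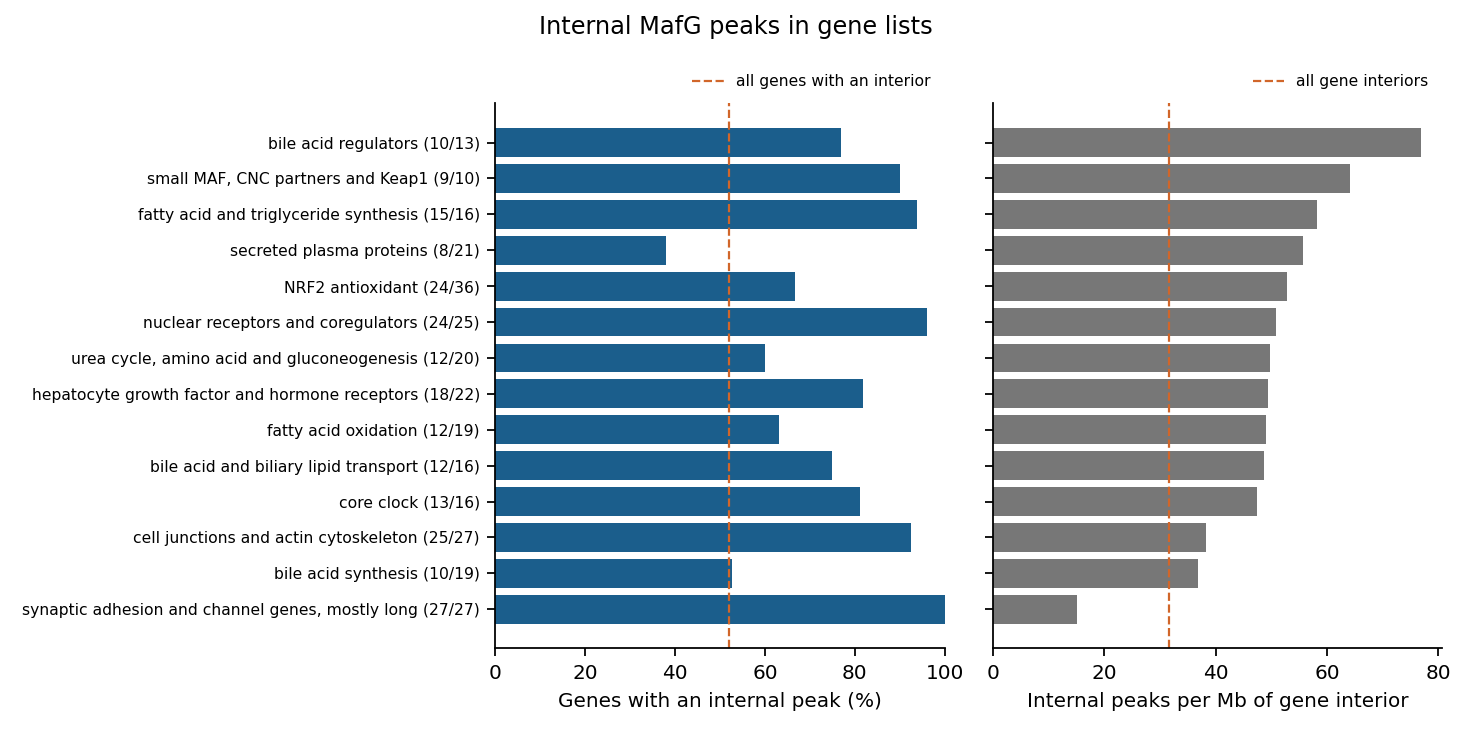
Share of the genes with an interior that held an internal peak (left, %) and internal peaks per Mb of gene interior (right) for 14 gene lists, with the numbers of genes in brackets; dashed lines mark all genes, at 52.0% and 31.7 per Mb. The synaptic list has the highest share and the lowest density, 100% and 15.1, and the list of bile acid regulators the highest density, 76.9. The dashed lines are not matched for gene length, and every length class under 300 kb had over 31.7 per Mb.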

How the data were processed

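The data were 1 list of peaks for the series, called by the authors with HOMER on reads aligned with Bowtie2 to mm10, per the submitters' processing notes. The sources used here give no versions. Peaks are 200 bp wide and at least 400 bp apart, per the file headers. The headers give a limit of 11 tags at a false discovery rate of 0.001. Some listed peaks fall below it in recovered tags, such as the Rora peak of 4.41 with 9. A listed peak also needed 10 times the control signal with a Poisson p-value of 1e-06, and 4 times the signal of the 10 kb around it. Of 142591 putative peaks, 68763 passed. The deposited BLRP-MafG signal is scaled by the authors to 10000000 tags, and the deposited control signal is unscaled. The deposited fold values are linear ratios, and the fold over control and the p-value against control were used for stricter alternatives. The deposited peak score was not used.

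The control total was inferred from the deposited fold and control tags of the tallest 1000 peaks. Whole tags were recovered from the signal and the stated total (within 0.102 of a whole number for every peak). Height was given an exact Poisson interval, and the ratio of BLRP-MafG to control, each scaled to its total, an exact conditional binomial one, computed in Python 3.11.15 with scipy 1.17.1. They cover counting error only. A ratio against 0 control tags was taken against a floor of 3, beside the lower interval limit. Classes, interior lengths and intervals were checked on simulated data.

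Genes came from a RefSeq table of assembly GRCm38.p6, which gives gene starts and ends but no exons, so exons and introns were not separated; strand came from RefSeq start windows. A peak inside several genes counted for each. No genome was used, so the peak sequences planned at the outset could not be read; start windows, hairpins, the motif TGACNNNGC followed by A, the split at a height of 20 and the sides of genes were added after the data were seen. Named are the 15 genes with most internal peaks, with most per kb and with the tallest, the 10 largest sums, the 10 longest genes without one, the 3 tallest of each list and every bile acid synthesis gene; further list members were named after their values were seen. Members and lists were chosen with earlier results of these data known. Alternatives moved the limit to gene ends, the gene models, the rule for overlapping genes and the caller's thresholds. Of 287 list genes, 282 lay on chromosomes 1 to 19; the others were on chromosome X. Values of some list members are not reported here.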

Additional observations from a re-analysis of the deposited data

How the results depend on the processing

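The main setting gave 29872 internal peaks (44.6% of autosomal peaks), 31.7 per Mb of interior, with a median height of 12.3. It also gave 52.0% of genes with a peak and a median of 0.0452 peaks per kb. With the limit to gene ends at 0.5, 2 and 5 kb, the share was 46.2%, 42.3% and 37.2%, the density 32.1, 31.2 and 30.5, and the peaks per kb 0.0475, 0.0419 and 0.0356; at 5 kb 55.5% of genes held a peak. With ends of every gene type the share was 43.3%, genes with a peak 51.2% and peaks per kb 0.0440. With peaks inside exactly 1 gene the share was 44.2% and genes with a peak 50.7%. Per kb of interior alone the median was 0.0480. Stricter thresholds leave fewer and taller peaks by construction. At a deposited fold of at least 20 there were 19274 internal peaks, 20.4 per Mb, with a median of 14.7, 42.5% of genes and 0.0335 per kb. At a p-value of at most 1e-10 the density was 26.1, the median 15.2, genes with a peak 47.8% and peaks per kb 0.0397. At 22 tags or more there were 17466, 18.5 per Mb, with a median of 21.1, 40.4% of genes and 0.0322 per kb. The share of list genes with a peak moved from 75.5% to 65.3% at the fold of 20 and to 67.1% at 22 tags. Of the 15 genes with most peaks, 9 stayed among the first 15 at 22 tags, and Rbfox1 kept 31 of its 50 peaks. Of the 15 genes with the tallest peaks, 9 stayed when ranked by the ratio with a floor of 3 control tags. Members with a peak fell to 15 in the antioxidant list (5 kb, and fold of 20), 5 in the plasma protein list (5 kb), 5 in the small MAF list (5 kb) and 7 in the urea cycle list (5 kb). Of the 135 recomputed member counts of single lists and Rbfox1 counts, 6 moved and 129 did not. Of the 82 other recomputed values, 34 moved and 48 did not. A value counted as moved when it left the interval of the main value, which covers counting error only. Without an interval, it counted as moved when it changed by more than 1.5 times.

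No paired analysis was possible because the list holds no value per library, and for the same reason no library could be left out. Depth limits single peaks: the median internal peak held 25 tags and 1 control tag.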
